A study of Mus musculus with 16 samples.

Results

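The 3 genes of the plasma membrane sodium-calcium exchangers (Slc8a1, Slc8a2 and Slc8a3) were examined. The 5 genes of store-operated calcium entry (Stim1, Stim2, Orai1, Orai2 and Orai3) were examined with them. The material was mRNA immunoprecipitated with ribosomes tagged in substantia nigra pars compacta (SNc) dopaminergic neurons. Markers of other cell types were also present in it. The genes were listed by name, and all 8 were found by Ensembl identifier among the 25006 genes of the count files. The questions were how the members of each family ranked in control mice, and whether their levels differed after deletion of the mitochondrial calcium uniporter (MCU).

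The exchangers NCX1, NCX2 and NCX3, encoded by Slc8a1, Slc8a2 and Slc8a3, use the inward sodium gradient to move calcium out of the cell, and they can run in reverse when sodium accumulates or the membrane depolarizes. STIM1 and STIM2 are single-pass proteins of the endoplasmic reticulum (ER) membrane that sense calcium inside the store. When the store empties, they gather at junctions with the plasma membrane and open channels built from ORAI1, ORAI2 and ORAI3, which admit the calcium that refills it. SNc dopaminergic neurons are autonomous pacemakers with a sizable calcium influx during each spiking cycle, so that calcium removal and ER refilling are standing tasks of these cells.

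Control mice were DAT-Cre+/- (8 mice, 1 library each), and MCU-KO mice were DAT-Cre+/- MCU fl/fl (8 mice, 1 library each), at postnatal day 45 in both groups. Every animal carried Cre at the dopamine transporter (DAT, Slc6a3) locus and had received, in the SNc, an adeno-associated virus with a Cre-dependent RiboTag, a Myc-DDK-tagged Rpl22l1 ribosomal protein. Tissue was dissected 30 days after that injection, and tagged ribosomes were immunoprecipitated together with the mRNA bound to them. Per the study's methods, the controls came from a cross of their own (DAT-Cre+/+ with C57/BL6 mice), so that line and Mcu genotype cannot be told apart. Recombination and the tag both depended on the same Cre, and the libraries hold mRNA on tagged ribosomes of the dissected tissue rather than the whole RNA of sorted cells. For a gene also used by other cells, fewer cells of a type and less RNA per cell cannot be told apart in such pooled material.

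Libraries held between 14129527 and 22016362 counts, and a limit of detection of 3 counts came to 0.136 CPM (counts relative to the library total) in the deepest and 0.212 CPM in the shallowest library. Such limits account for counting error alone, as amplified reads carried no molecular identifier. All 10 markers of dopaminergic neurons (Th and Slc6a3 among them) were counted in every mouse, with a summed level between 15150 and 18950 CPM in control and between 13180 and 20960 CPM in MCU-KO mice. Markers of 7 other cell types were lower but present. Over both genotypes, the 8 oligodendrocyte markers summed to between 2828 and 6736 CPM, the 8 astrocyte markers to between 453 and 1098 CPM, the 4 markers of GABAergic neurons to between 137 and 343 CPM and the 8 microglial markers to between 46.4 and 273 CPM. The highest sums were 107 CPM for the 2 markers of glutamatergic neurons, 66.1 CPM for the 5 endothelial markers and 30.8 CPM for the 3 markers of oligodendrocyte precursors. Mcu, the targeted gene, had 120, 401 and 828 normalized counts (lowest, median and highest mouse) in control and 5.82, 246 and 410 in MCU-KO mice. These counts cover the whole gene, exons outside the floxed part included. The groups overlapped, and the log2 fold change of Mcu was -1.19 (edgeR's quasi-likelihood test, adjusted p = 1.00). The study verified the deletion by other means, quantitative RT-PCR of Mcu in RiboTag mRNA and a smaller mitochondrial calcium response to glutamate receptor stimulation.

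In control mice, store-operated entry was represented by all 5 of its genes at middling levels, and the exchangers by Slc8a3, with less Slc8a2 and hardly any Slc8a1. Normalized counts (counts divided by a library size factor) were divided by gene length in kb to compare different genes with each other. Per kb of all annotated exons, the mean level over 8 control mice was 188 for Orai3, 157 for Orai1, 109 for Orai2, 102 for Stim2, 78.0 for Stim1, 92.6 for Slc8a3, 21.3 for Slc8a2 and 2.33 for Slc8a1. Orai3 thereby stood above 63.2% of the 12390 genes that passed the filter on low counts, Stim1 above 42.7%, Slc8a3 above 46.7%, Slc8a2 above 15.1% and Slc8a1 above 0.323%. These places depended on the length. By normalized counts without length, Orai3 stood above 43.1%, Stim1 above 60.95%, Slc8a3 above 48.4%, Slc8a2 above 16.55% and Slc8a1 above 5.20%.

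The order among all 8 genes was tested within each mouse as a log2 ratio of counts + 1 per kb, with an exact sign-flip permutation test and Benjamini-Hochberg adjustment over the 28 pairs. The smallest p this test can give with 8 mice is 0.0078. By mean log2 level per kb of annotated exons the order was Orai3, Orai1, Orai2, Stim2, Stim1, Slc8a3, Slc8a2 and Slc8a1. Within it, Orai3 and Orai1 did not differ beyond their spread (adjusted exact permutation p = 0.51), nor did Orai2 and Stim2 (0.49) or Stim1 and Slc8a3 (0.773). The remaining steps, from Orai1 to Orai2, Stim2 to Stim1, Slc8a3 to Slc8a2 and Slc8a2 to Slc8a1, passed the threshold. In MCU-KO mice the order was Orai3, Orai1, Stim2, Orai2, Slc8a3, Stim1, Slc8a2 and Slc8a1, and of its steps only that from Stim1 to Slc8a2 passed (adjusted exact permutation p = 0.0146). Among all 28 pairs, neighbours or not, 16 passed in MCU-KO mice and 20 in control mice with this length. Without single mice, 15 to 19 pairs passed in MCU-KO mice and 14 to 19 in control mice.

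Much of the order in its upper part rested on which length a gene was given. Stim1 has 10371 bases of annotated exon but a longest transcript of 4362, and Orai2 has 6077 against 3990, whereas Slc8a2 and Orai3 have the same length both ways. In control mice 20 of the 28 pairs passed the threshold with the exon length, 18 with the longest transcript and 23 with the longest coding sequence, and 15 passed in the same direction with all of these. Of those 15 pairs, 7 placed Slc8a1 below each other gene and 6 placed Slc8a2 below each gene other than Slc8a1. The others placed Slc8a3 below Orai3 and Stim2 below Orai1. Slc8a1 and Slc8a2 thus held the last places in control mice with every length tried. Slc8a3 did not differ beyond its spread from Stim1 or Stim2 with any of the lengths, and among STIM and ORAI genes only the place of Stim2 below Orai1 passed with all of them. Summed over each family per kb of exon, the median of control mice was 435 for ORAI, 168 for STIM and 128 for the exchangers, and the families kept this order of medians with the other lengths.

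**Figure D1:**
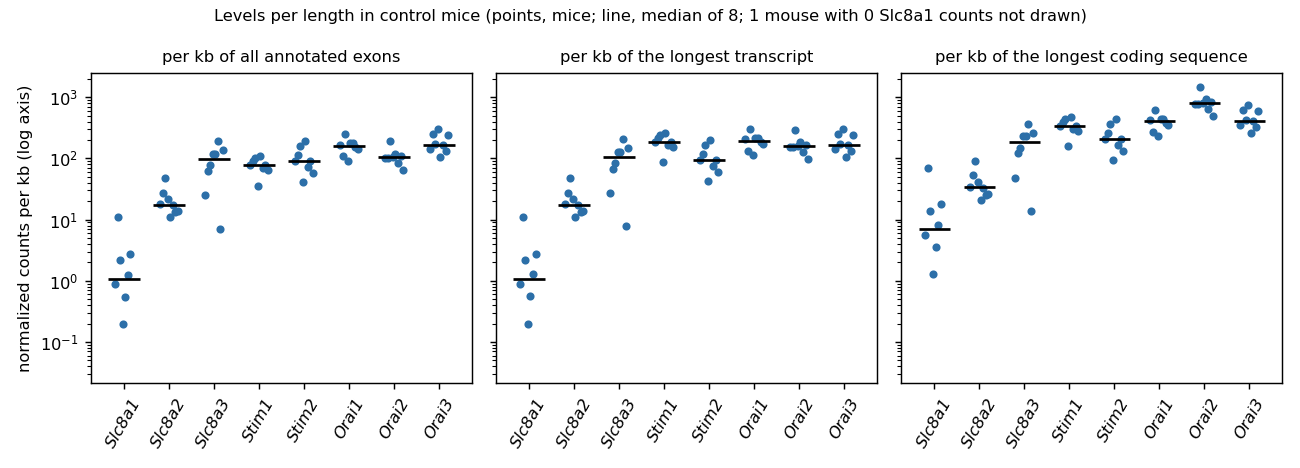
Levels of the 8 genes in control mice, as normalized counts per kb on a log axis, with gene length taken as all annotated exons, the longest transcript or the longest coding sequence. Points are mice and lines the median of 8. Slc8a1 and Slc8a2 lie lowest in each panel, and the ORAI and STIM genes change places between panels.

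Slc8a3 (ENSMUSG00000079055, chromosome 12, 81197915 to 81333180 on the minus strand of GRCm38) encodes NCX3, an exchanger of brain and skeletal muscle. Its normalized counts in control mice ranged from 38.0 over a median of 525 to 1026. Control mouse 7 was lowest and control mouse 6 highest, a 27.0-fold range, against 2.37-fold (326 to 772) among MCU-KO mice. The next lowest control, mouse 1, had 134, and the difference in range between genotypes was not tested. The coefficient of variation of Slc8a3 in control mice was 66.2%, higher than that of 71.1% of the genes tested, where Poisson counting without amplification noise gives 4.37%. Slc8a3 held a median of 72.7% of the exchanger family's level per kb of exon (lowest mouse 33.2%, highest 91.5%) and led the family in 7 of 8 control mice, and in MCU-KO mice it held 79.8% (72.7 to 87.8%) and led in 8 of 8. The mouse in which it did not lead was control mouse 7, where Slc8a2 held 60.9%.

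Slc8a2 (ENSMUSG00000030376, chromosome 7, 16129826 to 16161063, plus strand) encodes NCX2, the exchanger found mainly in brain. Control mice had 58.2, 92.6 and 254 normalized counts (lowest, median and highest), with control mouse 3 well above the others. Slc8a2 was lower than Slc8a3 in 7 of 8 control mice, with a mean log2 ratio per kb of -1.77 ± 1.62 (SD, n = 8, adjusted exact permutation p = 0.0438). This call was lost when any of the mice but control mouse 7 was left out, with ratios between -2.14 and -1.52. In MCU-KO mice the ratio was -2.50 ± 1.09 (SD) and Slc8a2 was lower in 8 of 8 (adjusted exact permutation p = 0.0146).

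Slc8a1 (ENSMUSG00000054640, chromosome 17, 81373105 to 81738377, minus strand) encodes NCX1, the exchanger of the heart and of many other tissues. Its normalized counts in control mice were 0 in mouse 3, 20.1 at the median and 204 in mouse 2, and in MCU-KO mice 0 in mouse 1, 59.5 at the median and 187 in mouse 5. The 0 in each genotype means fewer than about 3 counts, or 0.143 CPM in control mouse 3 and 0.149 CPM in MCU-KO mouse 1. Few genes were as uneven: the coefficient of variation in control mice was 153%, above that of 97.5% of the genes tested. The log2 ratio of Slc8a1 to Slc8a2 per kb of exon was -4.37 ± 2.63 (SD) in control mice and negative in 8 of 8 (adjusted exact permutation p = 0.0156), and that to Slc8a3 was -6.13 ± 2.97 (SD), also negative in 8 of 8 (adjusted exact permutation p = 0.0156). Slc8a1 has the longest exons of the family, 18807 bases against a longest coding sequence of 2910, and per kb of coding sequence it still held only 5.37% of the family at the median, with 28.9% in the highest control mouse. The ratio to Slc8a2 in control mice was -2.60 on that scale and still passed (adjusted exact permutation p = 0.0219). In MCU-KO mice it was -3.37 ± 3.30 (SD, adjusted exact permutation p = 0.0608) per kb of exon and -1.61 per kb of coding sequence, where Slc8a1 was lower in 4 of 8 mice (adjusted exact permutation p = 0.236). Of the exon bases of Slc8a1, 1.62% overlap genes on the opposite strand, whose reads may be counted together, as the strand setting is not given in the sources used here.

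Stim1 (ENSMUSG00000030987, chromosome 7, 102267806 to 102437319, plus strand) encodes the sensor that responds to a strong loss of store calcium. Its normalized counts in control mice were 374, 805 and 1114 (lowest, median and highest). Stim2 (ENSMUSG00000039156, chromosome 5, 53998499 to 54121057, plus strand) encodes the sensor that already responds to a small loss and serves basal calcium. Its normalized counts were 210, 464 and 987. Which of the sensors was higher per kb depended on the length. Stim1 was lower than Stim2 per kb of all exons (log2 ratio -0.30 ± 0.32 SD, 7 of 8 control mice, adjusted exact permutation p = 0.0386), and higher per kb of the longest transcript (0.90, 8 of 8, adjusted exact permutation p = 0.0156) and of coding sequence (0.65, adjusted exact permutation p = 0.0115). The call per kb of exon was lost without any of the mice but control mouse 8, with ratios between -0.36 and -0.22. The raw counts of Stim1 exceeded those of Stim2 by 0.72 on the log2 scale. Of the family's level per kb of exon, Stim1 held between 35.8 and 52.4% in control mice and between 30.7 and 56.3% in MCU-KO mice.

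Orai1 (ENSMUSG00000049686, chromosome 5, 123015074 to 123030456, plus strand) encodes the pore subunit of the classical calcium release-activated channel, and its normalized counts in control mice were 212, 366 and 564 (lowest, median and highest). Orai2 (ENSMUSG00000039747, chromosome 5, 136147459 to 136170713, minus strand), a subunit with prominent expression in brain, had 396, 629 and 1159. Orai3 (ENSMUSG00000043964, chromosome 7, 127769815 to 127775150, plus strand), a subunit found in mammals, had 226, 359 and 649. No ORAI gene led in all mice. Per kb of exon Orai1 led in 5 control mice and Orai3 in 3, with the same counts per kb of the longest transcript, whereas per kb of coding sequence Orai2 led in 7 and Orai3 in 1. Orai1 exceeded Orai2 per kb of exon (log2 ratio 0.54 ± 0.45 SD, 7 of 8, adjusted exact permutation p = 0.0386), differed less per kb of the longest transcript (0.22, adjusted exact permutation p = 0.278) and was lower per kb of coding sequence (-1.07, adjusted exact permutation p = 0.0115). The call per kb of exon was again lost without any of the mice but 1, control mouse 4, with ratios between 0.45 and 0.64. The ratio of Orai1 to Orai3 was -0.23 ± 0.88 (SD, adjusted exact permutation p = 0.51) and that of Orai2 to Orai3 -0.77 ± 0.77 (SD, adjusted exact permutation p = 0.0521).

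**Figure D2:**
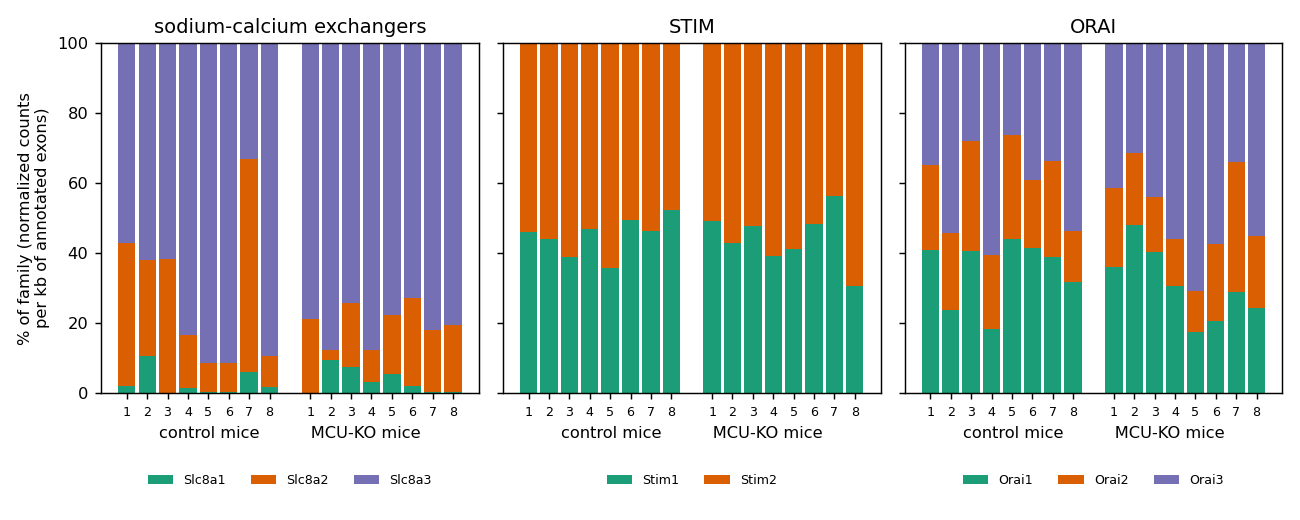
Share of each gene in its family's summed level per kb of annotated exons, in percent, for each of the 8 control and 8 MCU-KO mice (bars, numbered by mouse). Slc8a3 takes most of the exchanger level in every mouse but control mouse 7, and the STIM and ORAI shares vary among mice of both genotypes.

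No member passed the threshold between MCU-KO and control mice. All 8 were tested with edgeR's quasi-likelihood test, and 0 had an adjusted p under 0.05, where 0.178% of the 12390 genes tested did (22 genes). At an unadjusted p under 0.05 there were also 0 of 8, against 4.41% of all genes, and DESeq2 (0.404% of all genes) and limma-voom (0.218%) called 0 as well. The median log2 fold change was 0.05 over the members and 0.0025 over all genes, and 5 members were nominally higher and 3 lower in MCU-KO mice. The normalized counts of the genotypes overlapped for all 8, and failed to overlap in 0.258% of all genes.

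**Figure D3:**
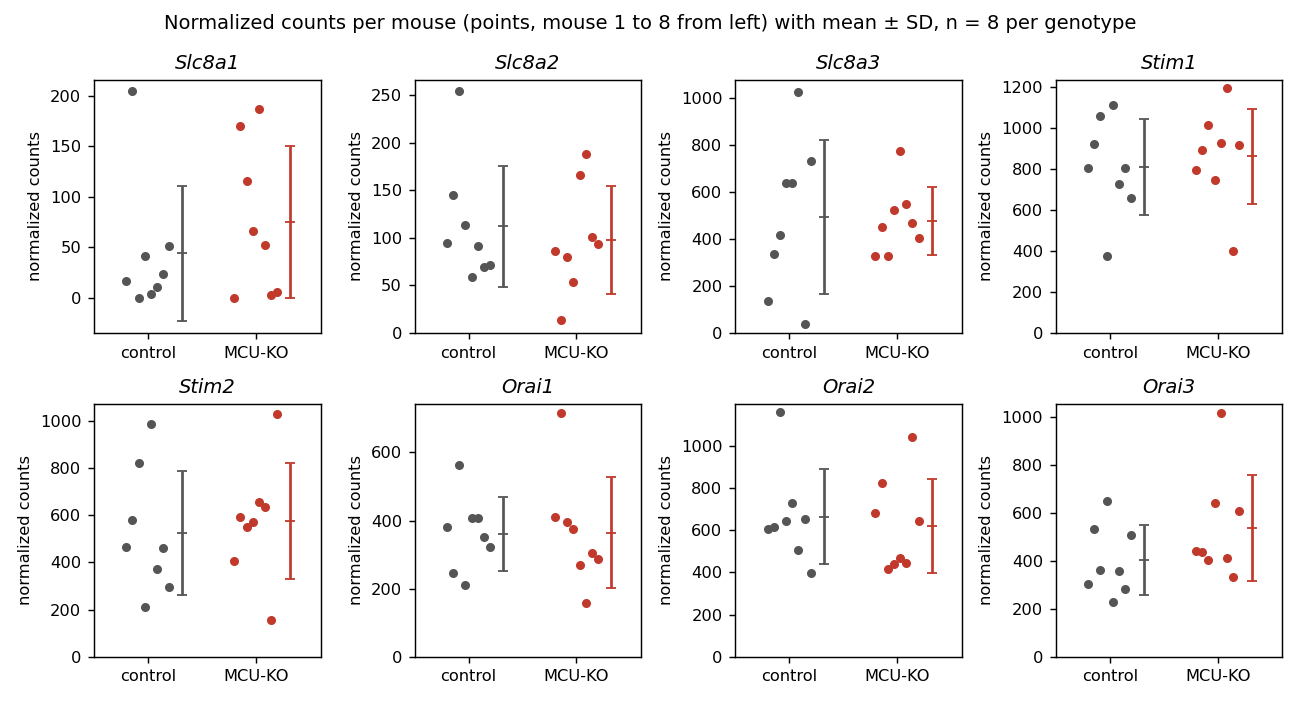
Normalized counts of the 8 genes in each mouse (points, mice 1 to 8 from left) with mean ± SD of 8 control (grey) and 8 MCU-KO mice (red). The groups overlap in each panel, and Slc8a3 spans 38.0 to 1026 in control against 326 to 772 in MCU-KO mice. The lowest of these values is that of control mouse 7, and the next lowest control has 134.

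How large a difference these data leave room for depended on the gene. Intervals lay within a log2 change of 1 in either direction for 5 members (Slc8a3, Stim1, Stim2, Orai1 and Orai2), a property shared by 51.8% of the genes tested. Stim1 had 401, 905 and 1194 normalized counts in MCU-KO mice (lowest, median and highest), and its log2 fold change was 0.09, with 95% confidence limits of -0.40 and 0.58 (0.758- to 1.49-fold). Stim2 had 154, 581 and 1027 in MCU-KO mice and a log2 fold change of 0.13 (-0.59 to 0.85). Both intervals include 0, and that of Stim1 was the narrowest of the members.

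Among the channel subunits, Orai1 had 159, 341 and 715 normalized counts in MCU-KO mice, and differed by 0.01 on the log2 scale (95% confidence limits -0.67 and 0.70). Orai2 had 414, 556 and 1042, with -0.10 (-0.64 to 0.44). Orai3 had 333, 438 and 1015, with 0.41 (-0.21 to 1.03), the lowest unadjusted p of the members (0.181 by edgeR's test over 8 and 8 mice). Its mean was 403 ± 145 (SD, n = 8) in control and 536 ± 220 (SD, n = 8) in MCU-KO mice. MCU-KO mouse 5, at 1015, was above all other animals, and without single mice the log2 fold change of Orai3 ranged from 0.22 to 0.54.

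The exchangers were measured with less precision. Slc8a3 had means of 494 ± 327 (SD) and 477 ± 144 (SD) normalized counts in control and MCU-KO mice, and differed by -0.05 on the log2 scale (95% confidence limits -0.95 and 0.85). Its direction was not stable: limma-voom gave 0.37, and 6 of the 16 fits without a single mouse were positive. Slc8a2 had 13.6, 89.7 and 188 normalized counts in MCU-KO mice and a log2 fold change of -0.20 (-1.57 to 1.17). For Slc8a1 the log2 fold change was 0.78 (-1.69 to 3.25), an interval wider than that of 90.2% of the genes tested, which spans from 0.309- to 9.49-fold. The intervals of Slc8a1 and Slc8a2 therefore did not exclude changes by 2-fold in either direction.

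**Figure D4:**
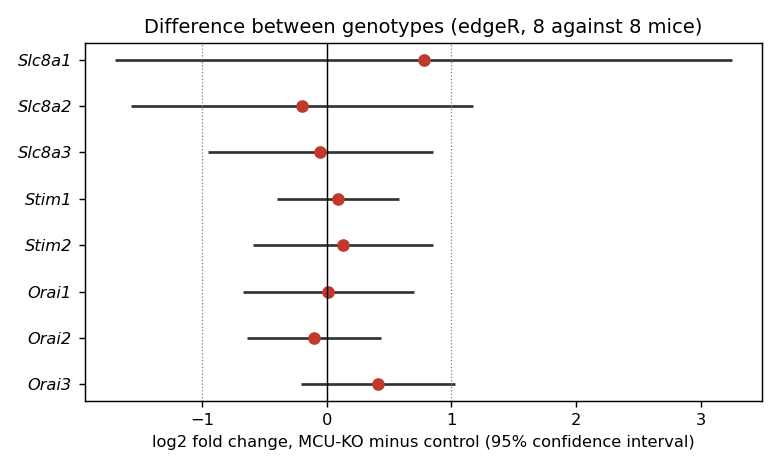
Log2 fold change of the 8 genes between MCU-KO and control mice (points) with the 95% confidence interval (bars) derived from edgeR's test. All intervals include 0, and those of Slc8a1 and Slc8a2 extend past the dotted lines at 1 and -1 on both sides.

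The balance within each family was compared between genotypes as the log2 ratio of counts + 1 per mouse, in which gene length cancels out. For Slc8a1, with few or no counts in some mice, the ratio also depends on the added 1 and on depth. The differences between MCU-KO and control included 1.00 for Slc8a1 to Slc8a2 (0.20 to 1.70 without single mice), -0.74 for Slc8a2 to Slc8a3 and -0.52 for Orai2 to Orai3. None of the 7 ratios passed the threshold when genotype labels were exchanged among the 16 mice in every possible way (exact permutation test), with adjusted p between 0.725 and 0.852. The ratio of Stim1 to Stim2 was 0.72 ± 0.32 (SD) in control and 0.68 ± 0.46 (SD) in MCU-KO mice, a difference of -0.04 (adjusted exact permutation p = 0.852).

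Stim1 and Stim2 rose and fell together from mouse to mouse. Control mouse 4 (374 and 210 normalized counts of Stim1 and Stim2) and MCU-KO mouse 7 (401 and 154) were lowest in their genotype for both genes, and control mouse 5 was highest for both (1114 and 987). This relation was looked for after the counts had been seen. Over 16 mice, with the mean of each genotype subtracted from log2 CPM, Pearson's r was 0.895 (permutation p = 2e-05, or 4e-05 in a second draw of 100000 permutations within genotype, adjusted p = 0.00056 over 28 pairs of members) and Spearman's rho was 0.829 (permutation p = 0.00026, adjusted p = 0.00728). It was 0.742 without the 2 mice farthest from the median, 0.942 within control and 0.851 within MCU-KO mice, and between 0.827 and 0.932 when any mouse was left out. None of the other 27 pairs passed the threshold, and the next was Slc8a1 with Orai2 (r = -0.59, adjusted permutation p = 0.339). Of 12389 other genes, Stim2 was the most like Stim1 and Stim1 the most like Stim2, where 99% of genes lay below 0.640 and 0.621.

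Levels of both sensors were nominally lower in mice with more dopaminergic marker mRNA. Against the summed CPM of the 10 dopaminergic markers, r was -0.57 for Stim1 and -0.63 for Stim2 over 16 mice (permutation p = 0.012 and 0.00574). The rho was -0.53 and -0.62 (permutation p = 0.0362 and 0.0126), and without the 2 farthest mice r was -0.26 and -0.58. Neither passed after adjustment over the 72 relations of the members with 8 marker lists and the library total, and 0 of the 72 did. For both sensors the adjusted permutation p was 0.381 for r and 0.486 for rho. The same adjusted permutation p of 0.381 belonged to r of Slc8a2 with the astrocyte markers (0.57) and of Stim1 with those of GABAergic neurons (0.52). With the library total, r was -0.11 for Stim1 and -0.32 for Stim2. The part of the dopaminergic marker levels in the relation between Stim1 and Stim2 was not tested.

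**Figure D5:**
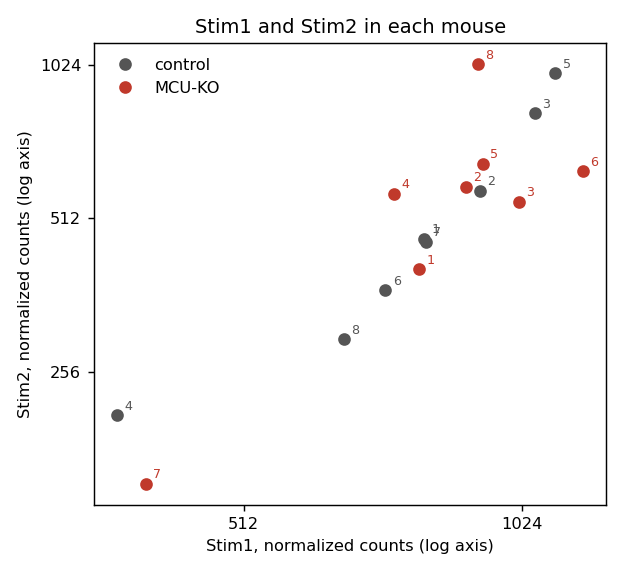
Normalized counts of Stim1 (horizontal, log axis) and Stim2 (vertical, log axis) in each of the 8 control and 8 MCU-KO mice, labelled by mouse number. Points rise together from control mouse 4 and MCU-KO mouse 7 at the lower left to control mouse 5 at the upper right.

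Because these genes moved together, the 250 bases before each annotated start are shown, from RefSeq on GRCm38.p6 and read 5′ to 3′ on the plus strand, on which both genes lie. The Stim1 promoter is chr7:102267569-102267818 and that of Stim2 chr5:53998273-53998522. Both windows end slightly inside the genes as listed above, whose starts came from GENCODE. Capitals mark GC boxes (GGGCGG on either strand, the core site of SP1-type factors) and CCAAT boxes (CCAAT on either strand).
Stim1: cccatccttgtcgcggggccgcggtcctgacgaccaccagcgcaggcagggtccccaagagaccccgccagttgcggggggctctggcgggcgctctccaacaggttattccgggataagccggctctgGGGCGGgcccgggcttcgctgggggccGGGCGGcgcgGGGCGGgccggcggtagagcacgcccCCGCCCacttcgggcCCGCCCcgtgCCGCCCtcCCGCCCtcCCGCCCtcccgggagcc
Stim2: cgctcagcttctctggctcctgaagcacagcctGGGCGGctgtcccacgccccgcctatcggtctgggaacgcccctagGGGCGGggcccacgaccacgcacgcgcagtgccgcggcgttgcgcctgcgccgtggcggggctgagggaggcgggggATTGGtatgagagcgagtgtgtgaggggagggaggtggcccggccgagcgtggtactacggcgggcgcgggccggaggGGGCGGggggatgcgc
The Stim1 window holds 8 GC boxes and no CCAAT box, and the Stim2 window 3 GC boxes and 1 CCAAT box. A GC box is found in 32.7% and a CCAAT box in 33.8% of 32851 promoter windows of this length. These shares are over all promoters and were not matched for CG pairs. Whether either box plays a part in the relation between Stim1 and Stim2 was not tested. Both windows are rich in CG pairs, with 31 in Stim1 (more than 94.8% of promoters have) and 30 in Stim2 (94.1%), at a GC content of 78.4 and 74.8%. TATAAA (in 12.4% of promoters), TGACGTCA (1.55%), CACGTG (6.02%) and GCGCATGC (2.26%) were searched on both strands and occur in neither window.

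For the gene with the highest level per kb of exon in each family, the 3 genes of most similar pattern over 16 mice were listed by the same measure. For Slc8a3 these were Junb (r = 0.872), an immediate-early transcription factor, Gm5148 (0.850) and Plvap (0.849), a protein of endothelial diaphragms. The 5 endothelial markers summed to between 14.4 and 66.1 CPM over all mice. Their r with Slc8a3 was 0.23 (adjusted permutation p = 0.676 over 72 relations) and their rho 0.26 (adjusted permutation p = 0.564). For Stim2 they were Stim1, Hsd17b11 (0.850) and Pnn (0.845), and for Orai3 Hebp1 (0.849), Tmpo (0.797) and Chic1 (0.792). These are the extremes of 12389 comparisons each and are given as a description.

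Other genes of store-operated entry and sodium-calcium exchange were examined from a list of 45, of which 35 were tested. Of these, 0 passed the threshold (edgeR, 0.178% of all genes), 22 were nominally higher and 13 lower in MCU-KO mice, and the median log2 fold change was 0.12. The list includes 16 regulators and contact-site proteins, 6 TRPC channels, 6 other exchangers, 5 exchanger partners and 12 genes of calcineurin and NFAT, the pathway that store-operated calcium switches on. Of the 35, only Ppp3cb, a catalytic subunit of calcineurin, had an unadjusted p under 0.05 by edgeR's test, as did 4.41% of all genes tested. It had 2271 ± 483 (SD) normalized counts in control and 3299 ± 699 (SD) in MCU-KO mice, with a log2 fold change of 0.54 (SE 0.15, 95% confidence interval 0.23 to 0.84) that did not pass (edgeR adjusted p = 0.366).

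In 3 other groups of that list, the gene with the smallest p was Tmco1, an ER calcium channel that opens on overfilling of the store (log2 fold change 0.27), Slc24a3 (-0.09) and Fxyd6, a sodium pump modulator (0.18). None passed the threshold (edgeR adjusted p = 1.00 each). Saraf, which shuts STIM and ORAI off after refilling, had 16965 ± 1522 (SD) normalized counts in control and 17093 ± 2061 (SD) in MCU-KO mice, and its 95% confidence interval of -0.16 to 0.18 was narrower than that of any member.

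Of the SLC24 family, potassium-dependent exchangers that export calcium and potassium in return for sodium, Slc24a2 and Slc24a3 were counted at higher levels than Slc8a3. The other family members were not: Slc24a1 had no count in any mouse, and the control means of Slc24a4 and Slc24a5 per kb of exon were 3.77 and 13.5 normalized counts. This comparison was chosen after the values were seen. Per kb of exon, Slc24a3 (NCKX3) had 669, 1124 and 1351 normalized counts in control mice (lowest, median and highest) and Slc24a2 (NCKX2) 139, 210 and 306. Slc8a3, the highest of the SLC8 genes, had a median of 98.4 on the same scale. Within mice, the log2 ratio to Slc8a3 was 4.00 ± 1.50 (SD) for Slc24a3 and 1.71 ± 1.61 (SD) for Slc24a2, and both were higher than Slc8a3 in 8 of 8 control mice (exact sign-flip permutation p = 0.0078, the smallest this test gives). The same held in 8 of 8 MCU-KO mice, at 3.53 ± 0.46 (SD) and 1.23 ± 0.57 (SD), and with each of the other lengths.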

How the data were processed

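RiboTag RNA-seq libraries of 8 control and 8 MCU-KO mice were used, and a further MCU-KO mouse counted in the paper was not analysed here. The authors trimmed reads with Trim Galore or cutadapt, used STAR for alignment to mm10 and HTSeq for counting, and deposited whole-number counts per Ensembl gene without normalization. Tool versions, strand setting and Ensembl release are not given in the sources used here. Library totals were 14129527 to 22016362 counts.

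Groups and mouse numbers came from the labels, which name separate mice. Symbols, coordinates and lengths came from GENCODE M21 on GRCm38, the assembly that mm10 names (24942 identifiers had a symbol), and promoters from RefSeq on GRCm38.p6. All genes were fitted with edgeR 4.0.16 under R 4.3.3 (TMM scaling after filterByExpr on genotype, glmQLFit and glmQLFTest, Benjamini-Hochberg adjustment over 12390 genes, threshold 0.05), in place of the study's DESeq2, which was an alternative (1.42.0), as were limma 3.58.1, other normalizations and filters, a replicate block, a glial covariate and the omission of each mouse. DESeq2's size factors gave the normalized counts. Ratios within mice used a pseudocount of 1, log2 CPM a prior count of 2, and correlations 100000 permutations in Python 3.11.15 with numpy 2.4.6 and scipy 1.17.1. Genes were compared per kb of the union of annotated exons, the longest transcript or, added after the transcript lengths were seen, the longest coding sequence.

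Named genes were all members, Mcu, the genes of the list of 45 pathway genes past the threshold and in each of its groups the one of smallest p, and the 3 genes most like the highest member of each family. Saraf, Slc24a2 and the Stim1 and Stim2 pair were named beyond this after their values were seen, and a gene that the rule names is not reported here. Members and lists were chosen with earlier results of these data known. Fits were tested on simulated data. Each p-value sets a difference or a relation against the variation between these mice.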

Additional observations from a re-analysis of the deposited data

Results flagged for a closer look

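Among 32 groups of 8 values checked (the 8 genes and 8 further measures per mouse in each genotype), a single mouse lay apart from the other 7 in 2, where chance gives about 1.6. The first was Stim1 in MCU-KO mice, whose lowest animal, mouse 7, had 8.65 on the scale of log2 (normalized counts + 1), or 401 normalized counts against 745 to 1194 in the others. Stim2 was lowest in the same mouse, at 154 normalized counts. Without it the log2 fold change of Stim1 was 0.19 in place of 0.09, and no call changed.

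The second was the library total of MCU-KO mouse 8, at 14129527 counts, where the other MCU-KO libraries held 19897268 to 20582204. Stim2 was highest of its genotype in that mouse (1027 normalized counts), and without it the log2 fold change of Stim2 was -0.04 in place of 0.13.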

How the results depend on the processing

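None of the 8 genes, and none of the pathway genes tested (35 in the edgeR fit, 23 to 44 with other filters), was called between the genotypes by edgeR, DESeq2 or limma-voom, with other normalizations or filters, with a glial marker covariate, with the replicate block or without any single mouse. With at least 10 counts required in every mouse, Slc8a1 dropped out and 7 members were tested. All genes called numbered 22 with edgeR, 50 with DESeq2, 14 with the replicate block and 18 to 24 without single mice. The labels number the mice within each group and name no pairing between the groups. Same-numbered mice correlated between -0.061 and 0.031, and 0 of 8 was its partner's best match. A batch shared by same-numbered mice was not tested beyond this. With the replicate block, the log2 fold change turned to 0.29 for Slc8a3 and -0.055 for Orai1, and with limma-voom to 0.37 and -0.030. Without single mice it ranged from 0.43 to 1.84 for Slc8a1, -0.40 to 0.091 for Slc8a2, -0.23 to 0.20 for Slc8a3, -0.015 to 0.19 for Stim1, -0.040 to 0.32 for Stim2, -0.20 to 0.13 for Orai1, -0.25 to 0.067 for Orai2 and 0.22 to 0.54 for Orai3.

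Ratios within mice turned on the length, by construction. In control mice, Stim1 to Stim2 was 0.90 with the longest transcript, 0.72 with no length and 0.65 with the coding length, Orai1 to Orai2 was 0.22, -0.87 and -1.07, Orai1 to Orai3 was 0.059 with the longest transcript, and Orai2 to Orai3 was 0.74 with no length and 0.87 with the coding length. Slc8a2 to Slc8a3 was -1.79 with no length and lost its call (adjusted exact permutation p = 0.0515). In MCU-KO mice, Stim1 to Stim2 was 0.86, 0.68 and 0.61, Orai1 to Orai2 was -0.80 with no length and -1.01 with the coding length, Orai2 to Orai3 was -0.68, 0.22 and 0.35, and Slc8a1 to Slc8a2 was -1.53 with no length and -1.61 with the coding length, neither called, and passed with a pseudocount of 5 (-2.91). Without single mice, the ranges in control mice were -2.14 to -1.52 for Slc8a2 to Slc8a3, -0.36 to -0.22 for Stim1 to Stim2, 0.45 to 0.64 for Orai1 to Orai2 (each called in 1 of the 8 fits) and -0.90 to -0.61 for Orai2 to Orai3. In MCU-KO mice they were -4.10 to -2.66 for Slc8a1 to Slc8a2, -0.43 to -0.21 for Stim1 to Stim2, 0.50 to 0.74 for Orai1 to Orai2, -0.87 to -0.49 for Orai1 to Orai3 and -1.49 to -1.09 for Orai2 to Orai3. Genotype differences, none called, ranged from 0.20 to 1.70 for Slc8a1 to Slc8a2, -0.39 to 0.88 for Slc8a1 to Slc8a3, -0.98 to -0.36 for Slc8a2 to Slc8a3, -0.66 to -0.26 for Orai1 to Orai3, -0.72 to -0.33 for Orai2 to Orai3, -0.14 to 0.082 for Stim1 to Stim2 and -0.039 to 0.21 for Orai1 to Orai2. The coding length and the correlations were chosen once the data were known.

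The counts do not separate transcripts of a gene, and reads that match several places cannot be told apart. The coefficient of variation in control mice was 153% for Slc8a1 and 56.8% for Slc8a2, and the shares of sampling, amplification and animals in it were not tested.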
